A study of Mus musculus with 17 samples.

Results

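The genes studied are the nuclear genes of mouse mitochondrial ribosomal proteins, taken as every protein-coding gene in the count table whose symbol is Mrpl or Mrps followed by a digit. The rule found 78 of the 55487 genes counted, and 77 of them were among the 13230 genes with enough counts to be tested. RNA was measured in ventricular cardiomyocytes from hearts of 60-day-old mice, in libraries labelled as MBNL1 loss of function (KO) or as control (WT). The muscleblind protein MBNL1 binds RNA and is known for its part in splicing, transcript turnover and localisation. The freshly isolated cells were plated on laminin, then exposed to the transcription blocker actinomycin D (2 µg/mL) and harvested at 0 h, 4 h and 8 h. The series asked which transcripts differ in stability between the genotypes. KO had 3 libraries at each time, and WT had 3 at 0 h, 2 at 4 h and 3 at 8 h, 17 in all. The labels name neither the allele, nor a Cre driver or promoter, nor the strain, and they do not say that libraries came from separate animals. The tests therefore weigh differences against the spread of these libraries alone, which may be technical.

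Mitochondria translate the few proteins encoded by their own DNA, all of them subunits of the oxidative phosphorylation complexes, on a ribosome of their own. Its RNAs, mt-Rnr1 of the small subunit and mt-Rnr2 of the large subunit, are made inside the organelle, whereas all of its proteins are encoded in the nucleus and imported. Some of these proteins descend from bacterial ribosomal proteins and others are found only in mitochondrial ribosomes. Cardiomyocytes are rich in mitochondria and depend on oxidative phosphorylation for contraction. The Mrpl genes here are proteins of the large subunit and the Mrps genes mostly of the small subunit. Mrps30 and Mrps18a carry small-subunit names but sit in the large subunit, and Mrps36 is now regarded as a subunit of the 2-oxoglutarate dehydrogenase complex, so the members comprised 51 large-subunit genes, 26 small-subunit genes and Mrps36.

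Library totals ran from 17059736 to 17971617 counts, of which genes on the mitochondrial chromosome held 35.05 to 43.34%. Levels are CPM, counts relative to the library total, after scaling by TMM, a method that sets the bulk of genes equal between libraries, so every difference is relative to other transcripts and absolute amounts were not measured. Where no other scaling is named, higher, lower, rose and fell refer to TMM. Mbnl1 was not lower in the libraries labelled KO (93.9 to 106 CPM) than in those labelled WT (85.7 to 92.9 CPM). A count over the whole gene cannot show the loss of a part of it, and KO below means the libraries so labelled. Esr1, an oestrogen receptor gene, had 36443 to 46057 counts in the KO libraries and 0 to 57 in the WT libraries. Drug-inducible forms of Cre carry part of an oestrogen receptor, but the labels name no such transgene. If the KO cells carry a construct with Esr1 sequence that the WT cells lack, its effects and those of MBNL1 loss cannot be told apart in any difference between KO and WT. All 12 cardiomyocyte marker genes were detected, and their summed level was 46970 to 51000 CPM in WT and 62010 to 65270 in KO at 0 h. Markers of other cell types summed to 92.1 to 107 CPM in WT against 38.9 to 44.1 in KO for macrophages and leukocytes, 78.3 to 81.8 against 42.2 to 46.3 for fibroblasts, 403 to 426 against 312 to 359 for endothelium, and 541 to 567 against 439 to 467 for pericytes and smooth muscle. In KO at 0 h, 13 of 14 tested macrophage and leukocyte markers, 9 of 11 fibroblast markers and 10 of 14 endothelial markers were called lower, and 9 of 12 cardiomyocyte markers higher. By 8 h these sums were 17.5 to 21.3 CPM in WT and 25.6 to 30.5 in KO for macrophages and leukocytes. They were 91.0 to 101 and 82.2 to 92.6 for endothelium, and 44.1 to 51.9 and 26.4 to 28.7 for fibroblasts. In KO at 8 h, 7 of 11 tested fibroblast markers were called lower and 0 higher. Of 14 macrophage and leukocyte markers 6 were called higher and 0 lower, and of 12 cardiomyocyte markers 6 higher and 1 lower. Of all tested genes 18.8% were higher and 17.9% lower in KO at 0 h, and 13.9% and 13.7% at 8 h. The part of these markers in the results below was not tested. In these bulk samples fewer cells of a type and less RNA per cell cannot be told apart.

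The summed level of the Mrpl and Mrps genes was lowest in WT at 0 h and highest in KO at 8 h. It was 2988 CPM ± 60.2 (SD, n = 3) in WT at 0 h, 3401 ± 33.6 (SD, n = 2) at 4 h and 3980 ± 119 (SD, n = 3) at 8 h. In KO it was 3787 ± 123 at 0 h, 4166 ± 74.0 at 4 h and 4531 ± 126 at 8 h (SD, n = 3 each). No KO library overlapped a WT library of the same time. Large-subunit genes held 71.8 to 72.2% of the sum and small-subunit genes 26.6 to 27.0% in the 6 groups, so the balance between the subunits was nearly the same in each. As an unscaled share of all counts, the members held 0.329 to 0.356% in WT and 0.358 to 0.390% in KO at 0 h, and 0.340 to 0.346% in WT at 4 h, which lies inside the WT range at 0 h.

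**Figure D1:**
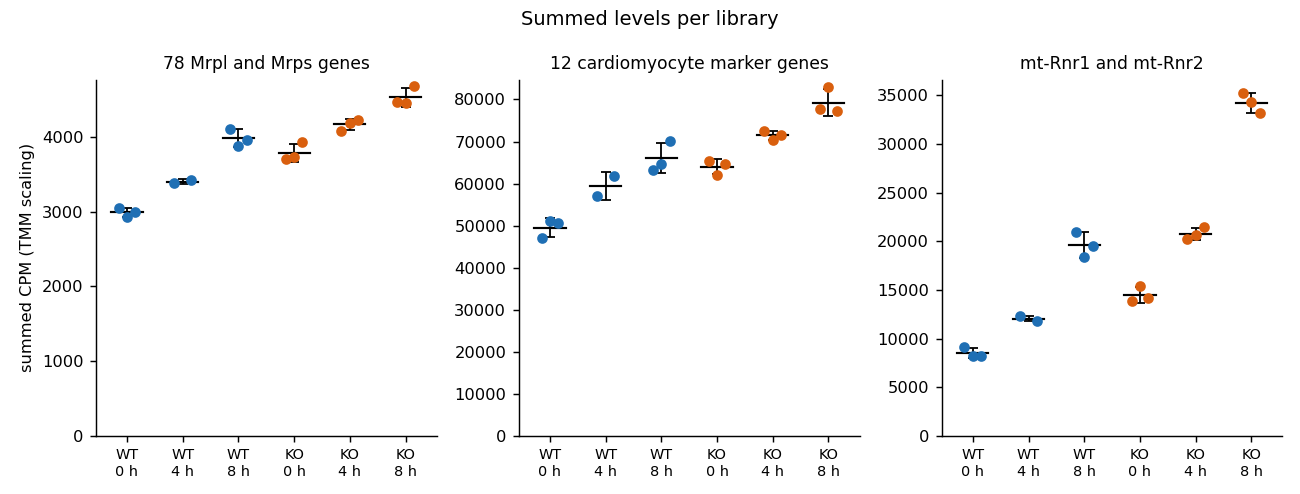
Summed TMM-scaled CPM per library for the 78 Mrpl and Mrps genes (left), 12 cardiomyocyte marker genes (middle) and the mitochondrial ribosomal RNAs mt-Rnr1 and mt-Rnr2 (right); points are libraries, black bars the mean ± SD, WT in blue and KO in orange. In all 3 panels the sum was higher in KO than in WT at each time and higher at 8 h than at 0 h, as scaled by TMM; the part of the cardiomyocyte marker level in the Mrpl and Mrps result was not tested.

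At 0 h, the baseline, every tested member was higher in KO than in WT relative to the median gene. The median log2 fold change over the 77 members was 0.36, against -0.02 over all tested genes, and members ranged from 0.01 to 0.73. By edgeR's quasi-likelihood test with Benjamini-Hochberg adjustment, 60 of 77 (77.9%) were called higher at an adjusted p of 0.05, where 18.8% of all tested genes were called higher and 17.9% lower. No member was called lower, and none was lower at an unadjusted p of 0.05 or with DESeq2. The calls depended on how libraries were scaled. Under scaling by library size alone 35 were higher and 3 lower, where 907 and 5564 of the 13230 tested genes were. With cytosolic ribosomal protein genes set equal 14 and 14 were, against 479 and 7569 of all genes. With cardiomyocyte markers set equal the counts were 10 and 17, against 364 and 8270 of all genes. Under those scalings the median of all genes moved to -0.22, -0.34 and -0.39. The gap between the members and all genes stayed at 0.38 in each by construction, because a scaling shifts all genes together. The plot of members by comparison shows the points lying above the middle of all genes.

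**Figure D2:**
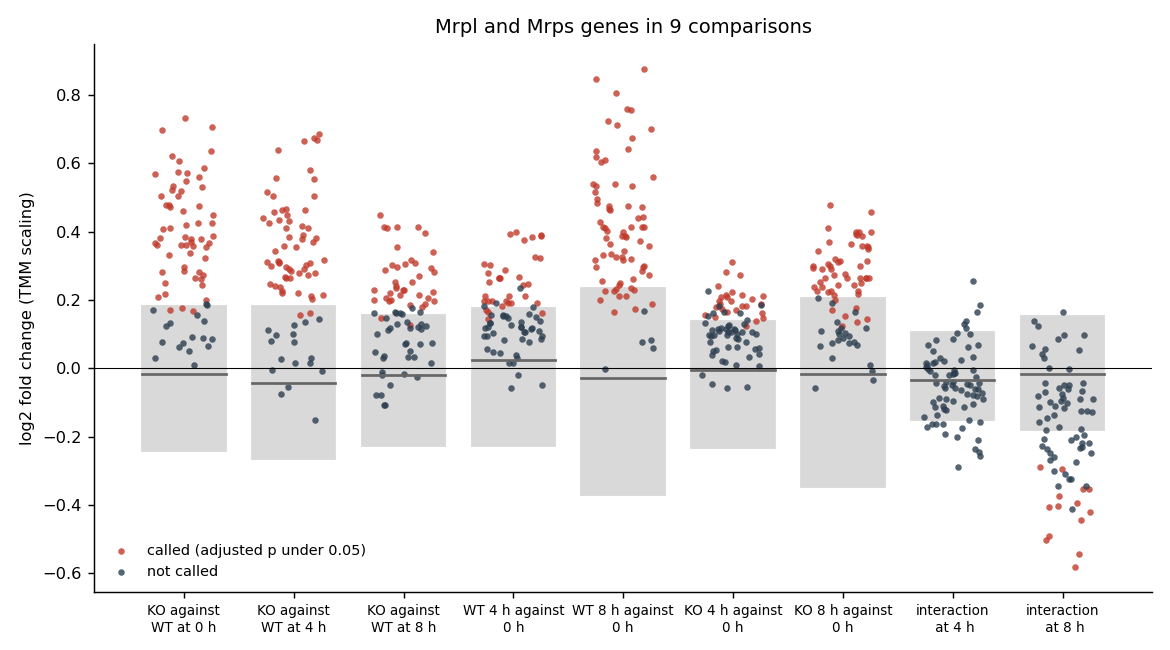
Each point is 1 of the 77 tested Mrpl and Mrps genes, placed by its log2 fold change (TMM scaling) in 9 comparisons, red where called at an adjusted p under 0.05; grey boxes span the lower to upper quartile of all 13230 tested genes and the grey line is their median. Members lie mostly above the median gene in the first 7 columns and mostly below it in the interaction at 8 h, with medians of 0.36 (KO against WT at 0 h), 0.39 (WT at 8 h against 0 h) and -0.17 (interaction at 8 h).

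Mrpl12, the stalk protein that helps recruit translation factors to the large subunit, had the largest difference among the members at 0 h. It was at 70.4, 57.5 and 57.2 CPM in the WT libraries and at 98.9, 101 and 108 in the KO libraries. No KO library overlapped a WT library, and KO was 1.66-fold higher (log2 fold change 0.73 ± 0.057 SE, edgeR adjusted p = 4.6e-16). Mrps26, a mitochondria-specific small-subunit protein, was at 10.5, 10.6 and 7.95 CPM in WT and 15.8, 15.3 and 16.1 in KO (log2 fold change 0.71 ± 0.099 SE). Mrpl52, a mitochondria-specific large-subunit protein, was at 9.15, 8.52 and 6.89 CPM in WT and 12.9, 12.5 and 14.3 in KO (0.70 ± 0.10 SE on the log2 scale). For neither gene did the libraries of the genotypes overlap. Mrps36 (0.64), the small-subunit gene Mrps22 (0.62) and the conserved small-subunit gene Mrps24 (0.61) followed on the log2 scale. Among called members the smallest differences were those of Mrpl30 (0.17), Mrpl37 (0.17), Mrpl16 (0.18), Mrpl44 (0.20), Mrpl27 (0.21) and Mrpl21 (0.22), each with no overlap between the libraries of the genotypes.

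Promoter sequences of 6 members are given to set genes with different patterns side by side: Mrpl12, Mrps26 and Mrpl52 for the highest differences between genotypes at 0 h, Mrps21 for the highest rise in WT at 8 h, Mrpl22 as 1 of the genes called in the interaction at 8 h and Mrpl50 as a gene called in no comparison. RefSeq windows of 300 bases (GRCm38.p6, 250 before and 50 after the transcript start, so upstream sequence and the start of the transcribed region) were found for 69 of the 78 members. Each is written 5′ to 3′ on the gene's strand, and capitals mark the letters GCATGCGC (NRF1), CCGGAAG (ETS family) or AAGATGGC (YY1) or their reverse complements, motifs of factors known to act on nuclear genes of mitochondrial proteins. Mrpl12 (ENSMUSG00000039640) has its window at chr11:120484387-120484686 on the plus strand, Mrps26 (ENSMUSG00000037740) at chr2:130563507-130563806 on the plus strand and Mrpl52 (ENSMUSG00000010406) at chr14:54426659-54426958 on the plus strand. Mrps21 (ENSMUSG00000054312) has it at chr3:95871465-95871764 on the minus strand, Mrpl22 (ENSMUSG00000020514) at chr11:58171414-58171713 on the plus strand and Mrpl50 (ENSMUSG00000044018) at chr4:49521034-49521333 on the minus strand.
Mrpl12: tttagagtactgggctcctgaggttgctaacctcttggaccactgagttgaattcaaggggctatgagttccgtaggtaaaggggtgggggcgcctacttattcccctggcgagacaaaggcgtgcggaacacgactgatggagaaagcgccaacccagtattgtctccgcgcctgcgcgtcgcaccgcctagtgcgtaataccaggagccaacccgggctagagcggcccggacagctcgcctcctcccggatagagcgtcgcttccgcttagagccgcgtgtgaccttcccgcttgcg
Mrps26: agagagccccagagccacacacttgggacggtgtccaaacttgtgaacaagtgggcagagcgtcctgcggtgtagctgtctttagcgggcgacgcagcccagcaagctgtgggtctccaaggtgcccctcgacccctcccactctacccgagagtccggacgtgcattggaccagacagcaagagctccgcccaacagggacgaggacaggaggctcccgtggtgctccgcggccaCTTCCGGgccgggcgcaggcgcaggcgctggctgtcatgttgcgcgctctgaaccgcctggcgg
Mrpl52: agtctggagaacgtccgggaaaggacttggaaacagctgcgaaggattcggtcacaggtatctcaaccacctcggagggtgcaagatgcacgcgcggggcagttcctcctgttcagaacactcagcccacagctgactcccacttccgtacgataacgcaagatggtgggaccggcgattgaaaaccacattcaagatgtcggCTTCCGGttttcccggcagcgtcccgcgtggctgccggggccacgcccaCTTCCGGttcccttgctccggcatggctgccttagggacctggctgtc
Mrps21: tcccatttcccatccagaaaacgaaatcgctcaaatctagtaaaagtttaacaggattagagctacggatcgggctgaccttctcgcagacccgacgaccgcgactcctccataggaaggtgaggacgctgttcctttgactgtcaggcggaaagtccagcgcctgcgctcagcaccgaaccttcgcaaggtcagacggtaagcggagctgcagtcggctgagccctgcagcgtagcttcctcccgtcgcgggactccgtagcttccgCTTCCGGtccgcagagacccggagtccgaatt
Mrpl22: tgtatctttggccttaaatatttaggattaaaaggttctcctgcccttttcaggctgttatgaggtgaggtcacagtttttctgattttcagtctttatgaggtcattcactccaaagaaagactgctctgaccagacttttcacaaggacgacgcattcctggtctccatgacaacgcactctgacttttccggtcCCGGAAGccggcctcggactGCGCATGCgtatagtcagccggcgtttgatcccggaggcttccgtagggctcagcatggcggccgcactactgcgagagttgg
Mrpl50: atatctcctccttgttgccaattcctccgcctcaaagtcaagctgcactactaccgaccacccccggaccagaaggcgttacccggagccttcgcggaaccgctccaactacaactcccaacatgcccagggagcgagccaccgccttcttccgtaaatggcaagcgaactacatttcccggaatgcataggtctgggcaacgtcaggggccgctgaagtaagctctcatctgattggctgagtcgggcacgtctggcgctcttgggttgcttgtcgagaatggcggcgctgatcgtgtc

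Of these windows, Mrps26 and Mrps21 hold the ETS letters at a single place and Mrpl52 at more than one, Mrpl22 holds both the ETS and the NRF1 letters, and Mrpl12 and Mrpl50 hold none of the searched letters of these 3 factors. Over all members, the ETS letters were in 26 of 75 windows (34.67%), against 17.21% of the 12208 windows of tested coding genes and 8.86% of all windows. The YY1 letters were in 12 member windows (16%, against 4.36% and 2.75%) and the NRF1 letters in 8 (10.67%, against 5.12% and 2.71%). The letters GGGCGG (SP family) were in 52.0% of member windows and 62.33% of those of tested genes, CACGTG (E-box) in 9.33% and 9.91%, and TATAAA in 6.67% and 7.25%, on either strand. In all, 38 members had the ETS, NRF1 or YY1 letters. A match is a description of the letters, not a binding site.

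The members were also higher in KO, relative to the median gene, at 4 h and 8 h. At 4 h the members' median log2 fold change was 0.30, against -0.04 for all genes, and 60 of 77 (77.9%) were called higher and 0 lower, where 14.6% of all genes were higher and 17.4% lower. At 8 h the median was 0.16, against -0.02, and 39 of 77 (50.6%) were called higher and 0 lower, where 13.9% of all genes were higher and 13.7% lower. No member was lower at an unadjusted p of 0.05, or with DESeq2, at either time. With library size alone 49 were higher and 0 lower at 4 h, and 16 and 1 at 8 h. Of the 13230 tested genes, 1432 were higher and 2695 lower at 4 h under that scaling, and 949 and 3046 at 8 h. Setting cytosolic ribosomal proteins equal gave counts of 6 and 18 at 4 h and 19 and 0 at 8 h. Over all genes these counts were 331 and 7439, and 1043 and 1938. With cardiomyocyte markers set equal the members' counts were 9 and 7 at 4 h and 1 and 20 at 8 h, against 461 and 5868, and 369 and 6098.

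At 4 h Mrpl34, a conserved protein of the large subunit, differed most, at 32.3 and 30.1 CPM in WT and at 48.1, 51.7 and 50.6 in KO (log2 fold change 0.68 ± 0.070 SE, edgeR adjusted p = 3.2e-12). Mrpl12 was at 70.2 and 68.0 CPM in WT and at 104, 113 and 113 in KO (log2 fold change 0.67). Neither gene's genotypes overlapped. Mrpl41 (0.67), Mrps26 (0.67), Mrps28 (0.64) and Mrps24 (0.58) were next on the log2 scale, and Mrpl37 (0.16), Mrpl11 (0.16), Mrpl15 (0.20), Mrpl16 (0.21), Mrpl46 (0.21) and Mrpl13 (0.22) were the smallest differences called.

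At 8 h Mrpl45, which lies at the exit of the peptide tunnel and binds the ribosome to the inner membrane, differed most. It was at 57.7, 58.7 and 59.4 CPM in WT and 78.3, 77.4 and 83.9 in KO (log2 fold change 0.45 ± 0.053 SE, edgeR adjusted p = 2.9e-10). At 0 h it had been at 50.6, 51.3 and 48.5 CPM in WT and 74.2, 72.7 and 72.9 in KO. The conserved genes Mrpl55 (0.41), Mrps9 (0.41), Mrpl34 (0.41) and Mrpl4 (0.40) and the mitochondria-specific Mrpl41 (0.41) followed on the log2 scale, each without overlap between genotypes. The smallest differences called were those of Mrpl30 (0.13), Mrpl11 (0.15), Mrpl1 (0.18), Mrpl24 (0.18), Mrpl10 (0.19) and Mrpl23 (0.20), and for Mrpl30, Mrpl24 and Mrpl23 the libraries of the genotypes overlapped. Over the 3 times, which share no libraries, 34 members (44.2%) were called higher in KO at each time, 57 (74.0%) at both 0 h and 4 h, and 25 (32.5%) at 0 h but not at 8 h. The same patterns held for 7.63%, 12.2% and 9.37% of all tested genes.

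**Figure D3:**
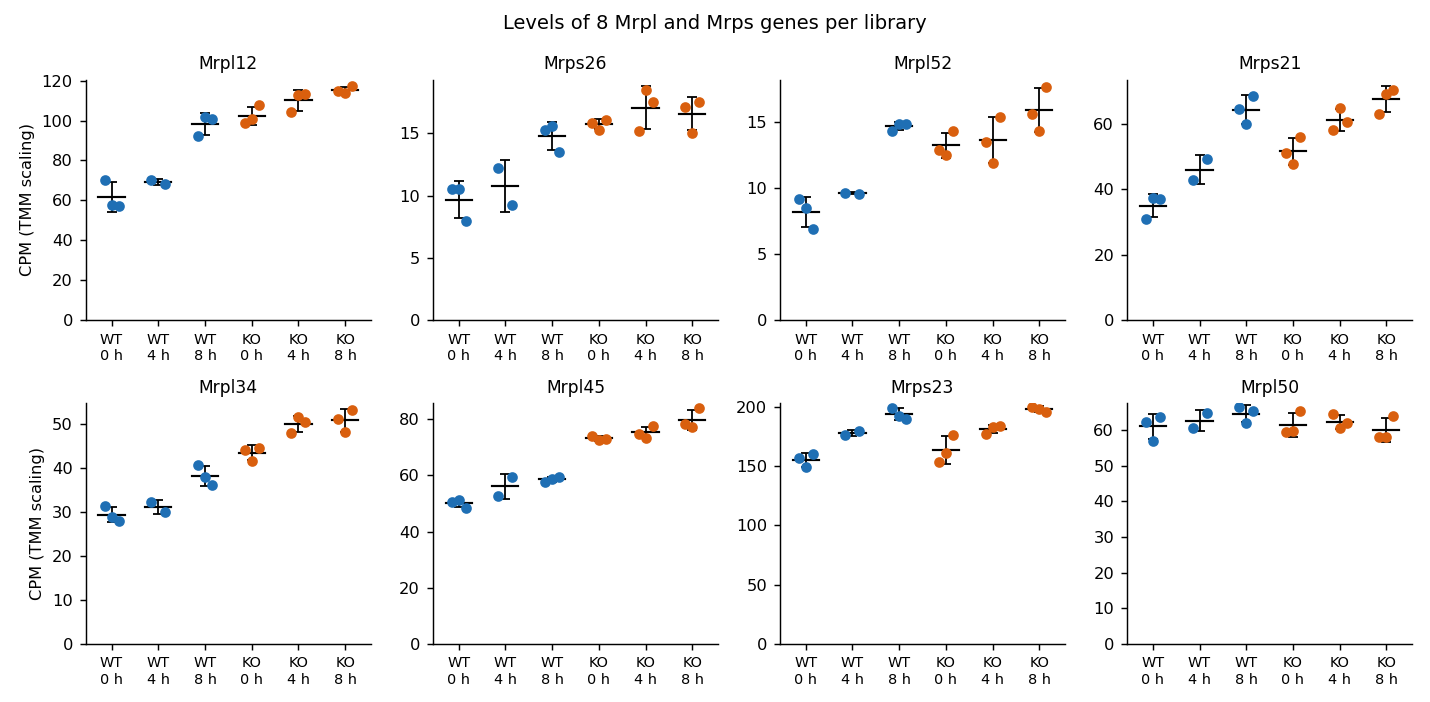
TMM-scaled CPM of 8 members in each library (points), with the mean and SD of each group in black, WT in blue and KO in orange. Mrpl12, Mrps26, Mrpl52 and Mrps21 start far apart and lie closer at 8 h, Mrpl34 and Mrpl45 stay separate at each time, Mrps23 rises in both genotypes with little difference between them, and Mrpl50 lies between 57.1 and 66.6 CPM throughout.

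No call between genotypes was made at any time for 12 members (15.6%, against 47.6% of all tested genes): Mrpl14, Mrpl17, Mrpl35, Mrpl50, Mrpl57, Mrps10, Mrps18b, Mrps18c, Mrps2, Mrps23, Mrps30 and Mrps6. Mrps23, a mitochondria-specific small-subunit protein and among the most abundant members, was at 157, 149 and 161 CPM in WT and at 153, 161 and 176 in KO at 0 h (log2 fold change 0.08 ± 0.045 SE, edgeR adjusted p = 0.20). Mrpl50, of the large subunit, was at 62.4, 57.1 and 63.8 CPM in WT and at 59.4, 59.8 and 65.4 in KO at 0 h (log2 fold change 0.01 ± 0.056 SE). For both genes the libraries of the genotypes overlapped. When libraries were scaled by size alone, Mrpl50 was lower in KO at 0 h, as the values under other scalings in the closing section show.

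During the transcription block the members gained share in WT relative to the median gene. At 4 h against 0 h their median log2 fold change was 0.16, against 0.02 for all genes, and 34 of 77 (44.2%) were called higher and 0 lower, where 15.9% of all genes were higher and 12.6% lower. At 8 h the median was 0.39, against -0.03, and 72 of 77 (93.5%) were called higher and 0 lower, where 25% of all genes were higher and 26.8% lower. No member was lower in either comparison at an unadjusted p of 0.05 or with DESeq2. The count at 4 h fell to 21 without WT 0 h replicate 2, to 18 without WT 4 h replicate 1 and to 14 without WT 4 h replicate 2, and to 17 when genes with low counts were kept. Over all genes the count higher at 4 h fell too, from 2106 of 13230 to 1476 of 13096, 1113 of 13678, 1088 of 13675 and 1283 of 29044 in the same order. The comparisons at 4 h and 8 h use the same 0 h libraries. With library size alone 2 members were higher and 2 lower at 4 h, and 43 and 1 at 8 h. Of the 13230 tested genes, 118 were higher and 3186 lower at 4 h under that scaling, and 1275 and 5898 at 8 h. With cytosolic ribosomal proteins set equal the members' counts were 1 and 1 at 4 h, and 1 and 58 at 8 h. Over all genes these counts were 41 and 2984, and 50 and 11275. With cardiomyocyte markers set equal the members' counts were 0 and 6 at 4 h, and 11 and 17 at 8 h, against 14 and 4549, and 311 and 8540.

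Mrps21, a conserved small-subunit protein, rose most in WT, from 30.9, 37.2 and 36.9 CPM at 0 h to 64.5, 59.8 and 68.6 at 8 h (1.84-fold, log2 fold change 0.88 ± 0.068 SE, edgeR adjusted p = 5.1e-15). At 4 h it was at 42.8 and 49.1 CPM, between the other times without overlap. Mrpl52 rose from 9.15, 8.52 and 6.89 CPM to 14.3, 14.9 and 14.8 (log2 fold change 0.85 ± 0.099 SE). Mrps11, a conserved protein of the small subunit, rose from 10.9, 7.18 and 8.57 CPM to 15.9, 14.1 and 16.3 (log2 fold change 0.80 ± 0.10 SE). The libraries of the 2 times did not overlap for these genes. Mrps36 (0.76), Mrpl42 (0.76) and Mrpl23 (0.72) followed on the log2 scale. Mrpl42, a mitochondria-specific large-subunit protein, went from 214, 199.5 and 210.3 CPM to 382, 318 and 355. The smallest rises called at 8 h were those of Mrpl11 (0.17), Mrpl44 (0.17), Mrpl36 (0.19), Mrpl10 (0.20), Mrpl55 (0.21) and Mrps31 (0.21). At 4 h the highest were Mrpl42 (0.40), Mrps21 (0.39), Mrps11 (0.39), Mrps33 (0.39), Mrps18a (0.39) and Mrps34 (0.38), and the smallest called were Mrpl30 (0.14), Mrpl45 (0.16), Mrpl12 (0.17), Mrps7 (0.17), Mrps5 (0.18) and Mrps27 (0.19). Mrps34 shares 63.4% of its exon bases with Mapk8ip3 on the opposite strand and 37.0% with Nme3 on the same strand. Its value is therefore uncertain.

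In KO the members also gained share relative to the median gene. At 4 h against 0 h their median was 0.12, against -0.004 for all genes, and 27 of 77 (35.1%) were called higher and 0 lower, where 11.4% of all genes were higher and 13.5% lower. At 8 h it was 0.24, against -0.02, and 54 of 77 (70.1%) were called higher and 0 lower, where 21.4% of all genes were higher and 23.2% lower. Here too no member was lower at an unadjusted p of 0.05 or with DESeq2. The count at 4 h fell to 13 without KO 0 h replicate 1, to 11 without KO 0 h replicate 2 and to 15 without KO 4 h replicate 2. Over all genes the count higher at 4 h fell too, from 1506 of 13230 to 1185 of 13170, 1137 of 13207 and 1142 of 13176 in the same order. With library size alone 9 members were higher and 0 lower at 4 h, and 30 and 0 at 8 h. Of the 13230 tested genes, 870 were higher and 1814 lower at 4 h under that scaling, and 1495 and 3989 at 8 h. Scaling to cytosolic ribosomal proteins gave 0 higher and 6 lower at 4 h, and 0 and 28 at 8 h. Over all genes these counts were 18 and 4608, and 27 and 8174. With cardiomyocyte markers set equal the members' counts were 0 and 0 at 4 h, and 0 and 16 at 8 h, against 27 and 3208, and 86 and 6667.

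Mrpl54, a mitochondria-specific large-subunit protein, rose most in KO, from 18.8, 20.8 and 24.9 CPM at 0 h to 30.9, 27.1 and 31.7 at 8 h (log2 fold change 0.48 ± 0.081 SE, edgeR adjusted p = 2.4e-06), with no overlap. Mrpl42 rose from 268, 312 and 321 CPM to 383, 414 and 439 (log2 fold change 0.46 ± 0.076 SE). Mrps24 (0.41), Mrps25 (0.40), Mrpl30 (0.40) and Mrpl23 (0.40) were next on the log2 scale, and Mrpl45 (0.12), Mrpl15 (0.14), Mrps31 (0.15), Mrpl1 (0.15), Mrpl12 (0.17) and Mrpl51 (0.18) were the smallest rises called. At 4 h Mrpl54 (0.31), Mrpl16 (0.28), Mrps18a (0.27), Mrps21 (0.24), Mrpl40 (0.22) and Mrpl23 (0.21) were highest, and Mrpl51 (0.12), Mrpl28 (0.14), Mrpl2 (0.15), Mrps23 (0.15), Mrpl11 (0.16) and Mrpl10 (0.16) the smallest called. Mrps25 shares 69.8% of its exon bases with Nr2c2 on the opposite strand, and whether counting used strand is not given, so its value is uncertain.

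By 8 h, 53 members (68.8%) were called higher than at 0 h in both genotypes, 19 (24.7%) in WT but not KO, 1 (1.3%) in KO but not WT and 4 (5.19%) in neither. Over all tested genes these shares were 17.1%, 7.88%, 4.21% and, for no call in either genotype, 38.7%. A call in one genotype and not in the other is no test of their difference, which the interaction gives. Mrpl50 went from 62.4, 57.1 and 63.8 CPM to 66.6, 62.0 and 65.4 in WT and from 59.4, 59.8 and 65.4 to 58.1, 58.1 and 63.9 in KO, and the times overlapped in both genotypes. Across the 77 members the WT and KO changes at 8 h, which share no libraries, had a Pearson r of 0.48 and a Spearman rho of 0.45, against 0.78 and 0.75 over all tested genes. Over the tested coding genes both changes move with transcript length (Spearman rho -0.36 in WT and -0.27 in KO). They also move with mean level (0.51 and 0.50). Across the 77 members rho was -0.42 and -0.36 with length, and -0.10 and 0.29 with level. The correlations between the genotypes are therefore descriptions.

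Whether the change during the block differed between the genotypes was tested as the interaction, the KO change minus the WT change on the log2 scale. At 4 h 0 members were called in either direction by edgeR, and 0 by DESeq2, where 0.242% of all genes were higher and 0.106% lower; 1 was higher and 3 were lower at an unadjusted p of 0.05. At 8 h 14 of 77 (18.2%) were called lower and 0 higher, where 3.33% of all genes were lower and 1.87% higher. Short transcripts in general were called lower more often than long ones, and the shares by length are given below. The members' median was -0.17, against -0.02 for all genes, and 13 of the 77 lay above the median gene. At an unadjusted p of 0.05 the members' counts were 35 lower and 0 higher. Neither at 4 h nor at 8 h were all genes counted at that threshold. DESeq2 called 12 members lower and 0 higher, against 328 lower and 121 higher of the 6527 genes to which it gave an adjusted p. The count of 14 fell to 8 without KO 0 h replicate 3, to 9 without WT 8 h replicate 1 and to 8 when genes with low counts were kept. Over all genes the count called lower fell too, from 440 of 13230 to 287 of 13202, 280 of 13207 and 260 of 29044 in the same order. With library size alone 5 members were lower and 0 higher, and with cardiomyocyte markers set equal 2 and 0. Over all genes these counts were 132 and 564, and 49 and 296. Cytosolic ribosomal proteins set equal gave 0 lower and 13 higher, none of the 14 among them. Of the 13230 tested genes, 44 were then lower and 2903 higher. That scaling put the median of all genes at 0.26 and the members at 0.11.

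Mrpl52 had the most negative interaction at 8 h (-0.58 ± 0.14 SE on the log2 scale, edgeR adjusted p = 0.0042). Its level in KO went from 12.9, 12.5 and 14.3 CPM to 15.7, 14.4 and 17.7, beside the WT rise given above. The WT and KO libraries at 8 h overlapped for this gene, though they had not at 0 h. Mrps26 (-0.54) went from 15.8, 15.3 and 16.1 CPM to 17.1, 15.1 and 17.6 in KO and from 10.5, 10.6 and 7.95 to 15.3, 15.6 and 13.5 in WT. Mrpl12 (-0.50 ± 0.079 SE, edgeR adjusted p = 2.3e-05) reached 92.1, 102 and 101 CPM in WT and 115, 114 and 117 in KO at 8 h, still without overlap. Mrps21 (-0.49), Mrpl18 (-0.45), Mrps22 (-0.42), Mrpl32 (-0.39), Mrps14 (-0.37), Mrps15 (-0.35), Mrps28 (-0.35), Mrpl39 (-0.30) and Mrps24 (-0.29) were called too, as were Mrpl22 (-0.41) and Mrps36 (-0.40). Mrpl18, a conserved protein of the central protuberance, was at 79.5, 72.0 and 77.6 CPM in WT at 0 h and 112, 101 and 105 at 8 h, and in KO at 106, 104 and 106 and then at 104, 106 and 112. The interaction and the comparison of genotypes at 0 h use the same 0 h libraries, so a high KO level or a low WT level in those libraries enters both. All 14 members called in the interaction were also called higher in KO at 0 h.

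**Figure D4:**
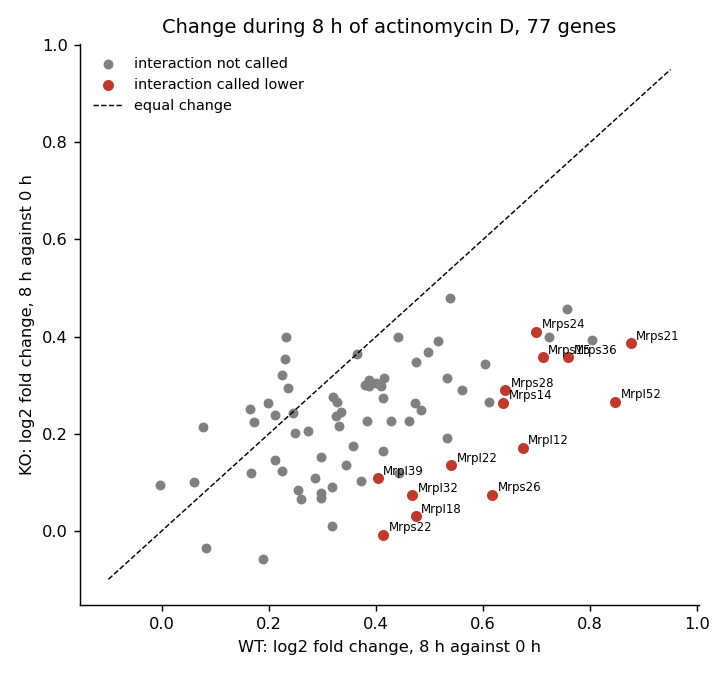
Each point is 1 of the 77 tested members, placed by its log2 fold change from 0 h to 8 h in WT (x axis) and KO (y axis), TMM scaling; red and named where the interaction was called, with the dashed line at equal change. Most points lie under the line, and Mrpl52, with 0.85 in WT and 0.27 in KO, lies farthest under it; some uncalled genes, such as Mrps11, lie farther under it than some called ones; with cytosolic ribosomal proteins set equal no member was called lower.

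For many members the sign of a change and its call thus rested on the scaling, and no scaling here gives absolute amounts. The 14 members called in the interaction at 8 h kept their sign but mostly lost their call. With library size alone, cytosolic ribosomal proteins set equal or cardiomyocyte markers set equal, 0 of them changed sign. In that order 5, 0 and 2 of them kept their call. Each scaling shifts all genes by nearly the same amount. The members' position relative to the median gene is therefore kept by construction, and the values below are no test of it. For KO against WT at 0 h the members' median was 0.36 with TMM, 0.38 with RLE factors, 0.16 with library size alone, 0.03 with cytosolic ribosomal proteins set equal and -0.01 with cardiomyocyte markers set equal. For WT at 8 h against 0 h it was 0.39, 0.41, 0.17, -0.28 and -0.03 in the same order, and all genes stood at -0.03, -0.002, -0.24, -0.69 and -0.44. The gap to all genes was 0.41 to 0.42 in each of these. Both the cytosolic ribosomal protein genes and the cardiomyocyte markers were themselves higher in KO at 0 h under TMM, with 65 of 80 tested cytosolic genes called higher (median log2 fold change 0.38) and 9 of 12 markers (0.38).

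**Figure D5:**
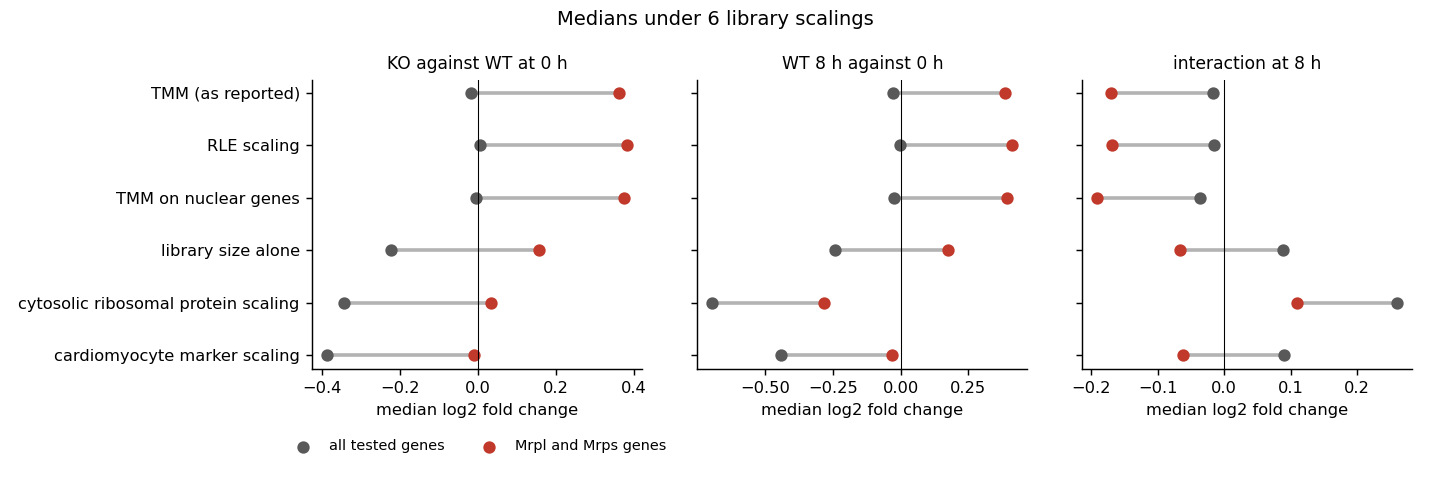
Median log2 fold change of the 77 tested Mrpl and Mrps genes (red) and of all tested genes (grey) under 6 ways of scaling the libraries, for KO against WT at 0 h, WT at 8 h against 0 h and the interaction at 8 h. The distance between the dots hardly moves by construction, because a scaling shifts all genes together. The members' median falls to -0.01 in the left panel and -0.28 in the middle panel and turns to 0.11 in the right panel under the scalings named.

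By role, the 30 conserved large-subunit genes had a median log2 fold change of 0.31 in KO against WT at 0 h, with 25 called higher, and the 20 tested mitochondria-specific large-subunit genes one of 0.37, with 16 called higher. The 16 conserved small-subunit genes had 0.39 with 12 called higher, and the 10 mitochondria-specific small-subunit genes 0.38 with 6 called higher. The genes called higher were 83.3, 80, 75 and 60% of the groups in that order, where 18.8% of all tested genes were higher. No gene of these groups was called lower, against 17.9% of all tested genes. In the interaction at 8 h the medians were -0.11, -0.19, -0.25 and -0.12 in the same order. In it 4, 2, 5 and 2 genes were called lower (13.3, 10, 31.2 and 20%), against 3.33% of all tested genes. No difference between the groups was tested. With cytosolic ribosomal proteins set equal, 0 of the 14 members called in the interaction kept their call and 0 changed sign. As above, 13 other members were then called higher.

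Of the 3 tested stalk genes, Mrpl12 was called higher in KO at 0 h and the other two were not. Mrpl10, which anchors the stalk, was at 45.9, 50.6 and 50.3 CPM in WT and 54.2, 55.4 and 50.4 in KO at 0 h (log2 fold change 0.12 ± 0.058 SE, edgeR adjusted p = 0.084), and Mrpl11, at the stalk base, at 43.9, 45.1 and 45.7 in WT and 47.2, 43.8 and 49.7 in KO (0.06 ± 0.058 SE). Both sets overlapped, unlike those of Mrpl12. At 8 h all 3 were called higher in KO, at 0.19 (Mrpl10), 0.15 (Mrpl11) and 0.23 (Mrpl12). Mrpl53, the other gene of the list, had 0 counts in all 17 libraries. Of its exon bases 88.0% lie under the read-through gene Gm42688 on the same strand, and its level cannot be read from these counts.

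Of the 3 homologues of the bacterial protein S18, Mrps18a was called at 0 h and the other two were not. Mrps18a, in the large subunit, was at 39.6, 38.2 and 40.3 CPM in WT and 52.6, 48.3 and 52.7 in KO at 0 h, with no overlap (log2 fold change 0.38 ± 0.058 SE, edgeR adjusted p = 1.7e-07), and rose in both genotypes by 8 h (0.50 in WT and 0.37 in KO), though with cytosolic ribosomal proteins set equal the WT change turned to -0.17. Mrps18b and Mrps18c, of the small subunit, had log2 fold changes of 0.16 ± 0.096 SE and 0.19 ± 0.085 SE at 0 h, neither called. In WT at 8 h they rose by 0.29 and 0.37, and in KO their changes of 0.11 and 0.10 were not called. Mrps18b shares 30.5% of its exon bases with Gm16279 on the opposite strand, which makes its values uncertain.

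The RNAs of the mitochondrial ribosome were also higher in KO under TMM. At 0 h mt-Rnr1 was at 2465, 2126 and 2229 CPM in WT and at 4410, 4967 and 4550 in KO (log2 fold change 1.03 ± 0.048 SE, edgeR adjusted p = 3.3e-26), and mt-Rnr2 at 6689, 6107 and 5924 in WT and 9419, 10470 and 9587 in KO (0.66 ± 0.048 SE). During the block both gained share, mt-Rnr1 by 1.69 in WT and 1.41 in KO and mt-Rnr2 by 0.98 in WT and 1.15 in KO at 8 h on the log2 scale. No library of KO overlapped one of WT at the same time for either RNA. Of the 31 tested genes on the mitochondrial chromosome, 14 (45.2%) fell and 5 (16.1%) rose in WT by 8 h, and 20 (64.5%) fell and 2 (6.45%) rose in KO. These 31 are of every kind, ribosomal and transfer RNA genes included, and the mRNAs were not counted apart. Their log2 fold changes at 8 h ran from -3.59 to 1.86 in WT and from -4.84 to 1.48 in KO. Of all tested genes 26.8% fell and 25% rose in WT, and 23.2% fell and 21.4% rose in KO.

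Of 5 mitochondrial ribosomal proteins with other names, Dap3 (log2 fold change 0.44), Chchd1 (0.42), Gadd45gip1 (0.40) and Aurkaip1 (0.37) were called higher in KO at 0 h and Ptcd3 (0.05) was not. All 5 rose in WT by 8 h, from 0.33 (Ptcd3) to 0.59 (Chchd1), and 4 rose in KO, from 0.18 (Chchd1) to 0.35 (Dap3), while Gadd45gip1 (0.13) was not called. Chchd1 went from 27.9 CPM ± 2.67 (SD, n = 3) to 41.9 ± 0.73 in WT and from 37.3 ± 1.61 to 42.3 ± 3.37 in KO, and its interaction at 8 h was called (-0.41 ± 0.094 SE, edgeR adjusted p = 0.0037).

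Other genes that build or serve the mitochondrial ribosome were taken from lists, whose counts stand against 18.8% higher and 17.9% lower of all tested genes in KO at 0 h, 25% and 26.8% in WT at 8 h, and 21.4% and 23.2% in KO at 8 h. Of 25 assembly factors, 6 (24%, near that of all genes) were called higher and 0 lower in KO at 0 h (median log2 fold change 0.06), the highest being Mettl17 (0.53), a factor of small-subunit assembly, and the lowest called Mtg1 (0.17), a GTPase of large-subunit assembly. In WT at 8 h 4 of them rose and 4 fell (16% each, below the shares of all genes, median 0.09), between Malsu1 (0.56) and Mrm1 (-0.49), and in KO 4 rose and 7 fell, between Rbfa (0.30) and Ybey (-0.61). Of 14 translation factors and mRNA-stability proteins, 11 were higher and 0 lower in KO at 0 h (median 0.29), from Gfm1 (0.16), an elongation factor, to Lrpprc (0.51), which protects mitochondrial mRNAs. In WT 10 of these rose by 8 h and 0 fell, from Guf1 (0.22) to Slirp (0.61), and in KO 7 rose and 1 fell, from Mtif3 (-0.36) to Gfm1 (0.40). Of 20 mitochondrial tRNA synthetase and tRNA-charging genes, 9 were higher and 0 lower in KO at 0 h (median 0.14), from Qrsl1 (0.17) to Cars2 (0.45). In WT 10 of the 20 rose and 3 fell by 8 h, between Lars2 (1.15) and Pars2 (-0.46), and in KO 7 rose and 2 fell, with the same genes at the ends (0.95 and -0.67).

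Of 8 tested genes of mitochondrial transcription and replication, 2 (25%) were higher and 0 lower in KO at 0 h, Tfam (0.20) and Polg (0.17), where 18.8% of all tested genes were higher and 17.9% lower. Of 11 nuclear regulators of mitochondrial genes, 1 (9.09%) was higher and 2 (18.2%) were lower, with Ppargc1a, the coactivator PGC-1alpha, at 68.9 CPM ± 1.90 (SD, n = 3) in WT and 90.8 ± 3.36 in KO (log2 fold change 0.40, edgeR adjusted p = 2.75e-09) and Myc lower in KO (-0.60). During the block Myc, whose mRNA is known to turn over quickly, fell by 1.96 in WT and by 1.95 in KO on the log2 scale at 8 h. Among nuclear genes of the oxidative phosphorylation complexes, 74 of 82 were higher and 0 lower in KO at 0 h (median 0.38) and 80 rose and 0 fell in WT by 8 h (median 0.51). In the interaction at 8 h, 11 of these 82 were called lower and 0 higher (median -0.12), where 3.33% of all tested genes were lower and 1.87% higher. Of the 80 cytosolic ribosomal protein genes, 78 rose and 1 fell in WT by 8 h (median 0.66), 73 rose and 0 fell in KO (0.37), and 35 were called lower and 0 higher in the interaction at 8 h (median -0.30).

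The members are short transcripts, with a median of 1316 bases (418 to 7300) and a median 3′ UTR of 330 bases, against 3079.5 and 1054 over 12032 tested coding genes. Short transcripts in general were higher in KO at 0 h and rose during the block relative to long ones. Among coding genes with a mean log2 CPM of at least 3, other genes under 1000 bases had a median log2 fold change of 0.30 in KO against WT at 0 h and those over 3000 bases one of -0.02, while the members had 0.48 (24 genes) and 0.32 (17 genes). Between 1000 and 2000 bases the members stood at 0.33 and other genes at 0.16. In WT at 8 h against 0 h the medians under 1000 bases were 0.51 for members and 0.49 for other genes, and over 3000 bases 0.30 and -0.03. In KO they were 0.28 and 0.34 under 1000 bases, and 0.15 and 0.01 over 3000 bases. From 1000 to 2000 bases (28 members) they were 0.386 and 0.278 in WT, and 0.265 and 0.203 in KO. From 2000 to 3000 bases (8 members) they were 0.408 and 0.15 in WT, and 0.121 and 0.113 in KO. In the interaction at 8 h they were -0.24 and -0.17 under 1000 bases, and -0.11 and -0.10 from 1000 to 2000 bases. From 2000 to 3000 bases they were -0.26 (8 genes) and -0.04, and over 3000 bases -0.14 and 0.02. Under 1000 bases 29.2% of members and 21.3% of other genes were called lower in it, and from 1000 to 2000 bases 10.7% and 11.6%. These shares were 25% and 5.29% from 2000 to 3000 bases, and 11.8% and 1.96% over 3000 bases. The members' medians were thus above those of other genes of their length at 0 h, and close to them in the block for transcripts under 1000 bases. Over the tested coding genes the difference of KO from WT at 0 h also moved with mean level (Spearman rho 0.33, against -0.04 across the members). The part of length and of mean level in the members' values was not tested.

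Levels between genes were compared per length of the principal annotated transcript (APPRIS, the longest where tied), as CPM per kilobase. In WT at 0 h Mrpl42 was highest at 312 ± 11.3 (SD, n = 3), followed by Mrpl30, a conserved large-subunit protein, at 130 ± 6.36 and Mrps23 at 117 ± 4.47, neighbours that differ by more than either SD. Mrps26 was lowest at 2.26 ± 0.35, below Mrpl17 at 3.16 ± 0.16 and Mrpl19 at 4.44 ± 0.23. In KO at 0 h Mrpl42 stood at 451 ± 42.3 and Mrps26 at 3.68 ± 0.095, above Mrpl17 at 3.36 ± 0.24, so the order of the lowest genes turned. Mrps26, Mrpl17 and Mrpl19 have long annotated transcripts of 4278, 7300 and 5000 bases, which lowers a value per kilobase if a shorter form is used, and Mrpl19 shares 36.0% of its exon bases with Gcfc2 on the opposite strand. In all, 33 members share exon bases with another gene, 28 of them on the opposite strand, and 7 share at least 25%, and 5 annotated processed pseudogenes carry the names of Mrpl23, Mrpl48 or Mrps36, whose counts could be split with them.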

How the data were processed

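RNA sequencing counted transcripts in 17 cardiomyocyte libraries. The authors deposited raw counts per Ensembl gene. Per the submitters' processing notes the tools included STAR, featureCounts, DESeq2 and limma, on GRCm38 or mm10. Their versions and roles, and the strand setting, are not given in the sources. A second deposited table of ratios was not used. The GENCODE M21 annotation (GRCm38) matched 55226 of the 55487 identifiers (99.5%), and promoters came from RefSeq (GRCm38.p6).

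The filterByExpr function of edgeR 4.0.16 (R 4.3.3) kept 13230 genes with 99.9% of counts, and these were scaled by TMM and fitted in 1 robust quasi-likelihood model of the 6 groups. The biological coefficient of variation was 5.28%. Adjustment was by Benjamini-Hochberg across all tested genes of a comparison, with calls at 0.05. A standard error is the log2 fold change divided by the square root of F. Groups came from the labels. The model was tested on simulated data.

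The members and all gene lists were chosen with earlier results of these data known. For each comparison the 6 highest and 6 lowest called members with a mean log2 CPM of at least 3 are named, with the 3 highest and 3 lowest by level per length, the stalk, S18 homologue, other-named protein and ribosomal RNA lists, and the highest and lowest called gene of each other pathway list. Mrpl50 and the other genes called in no comparison of genotypes were named after their values were seen, and so were the promoters shown.

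Equal replicate numbers did not pair libraries: residual correlations of 40 such pairs ran from -0.0469 to 0.0382, against -0.0535 to 0.0535 for 80 other pairs. No libraries of a group were duplicates (log2 r 0.991 to 0.992, squared differences 1.23 to 1.81 times counting noise). Alternatives were RLE factors, library size alone, cytosolic ribosomal protein genes set equal, TMM on nuclear genes, no filter, DESeq2 1.42.0, a replicate block and leaving out each library, and, added after seeing the data, cardiomyocyte markers set equal.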

Additional observations from a re-analysis of the deposited data

Results flagged for a closer look

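Change during the block differed between the genotypes, by the interaction test at 8 h, for 14 of 77 members (18.2%), all lower. Of all tested genes 3.33% were lower and 1.87% higher. All 14 were also called higher in KO at 0 h, and those 0 h libraries enter both tests. Between genotypes at 8 h, 9 of the 14 were not called. The KO change minus the WT change was -0.58 (Mrpl52), -0.54 (Mrps26), -0.50 (Mrpl12), -0.49 (Mrps21), -0.45 (Mrpl18), -0.42 (Mrps22), -0.41 (Mrpl22), -0.40 (Mrps36), -0.39 (Mrpl32), -0.37 (Mrps14), -0.35 (Mrps15), -0.35 (Mrps28), -0.30 (Mrpl39) and -0.29 (Mrps24) on the log2 scale under TMM. Among related genes it was -0.41 for Chchd1, another mitochondrial ribosomal protein, -0.28 for mt-Rnr1 and -0.32 for Cars2, a mitochondrial tRNA synthetase. With cytosolic ribosomal proteins set equal none of the 14 members was called, and 0 of them changed sign.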

How the results depend on the processing

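No count of members moved by over 1.5 times with RLE factors, TMM on nuclear genes, DESeq2 or the replicate block. Members higher in KO at 0 h and in WT at 8 h were 66 and 73 with RLE, 61 and 72 with TMM on nuclear genes, 60 and 71 with DESeq2, and 60 and 72 with the replicate block. Over all genes these counts were 2735 and 3574, 2623 and 3371, 2192 and 3027, and 2493 and 3312 in the same order. DESeq2 gave an adjusted p to 14031 and 15639 genes, and the other settings to 13230. With library size alone, members higher and lower were 35 and 3 (KO against WT at 0 h), 16 and 1 (at 8 h), 2 and 2 (WT 4 h against 0 h), 43 and 1 (WT 8 h), 9 and 0 (KO 4 h) and 30 and 0 (KO 8 h), with 5 lower in the interaction at 8 h. With cytosolic ribosomal proteins set equal they were 14 and 14, 6 and 18, and 19 and 0 (KO against WT at 0, 4 and 8 h), 1 and 1, and 1 and 58 (WT 4 h and 8 h), 0 and 6, and 0 and 28 (KO 4 h and 8 h), and 13 and 0 (interaction at 8 h). With cardiomyocyte markers set equal they were 10 and 17, 9 and 7, and 1 and 20, then 0 and 6, and 11 and 17, then 0 and 0, and 0 and 16, and 0 and 2, in the same order. Without the filter 17 rose in WT at 4 h and 8 were lower in the interaction at 8 h. These settings change the scale of all genes by construction, and the cause was not tested further. For library size, cytosolic ribosomal proteins and cardiomyocyte markers, the counts over all tested genes stand with each comparison above. Those without the filter stand with the comparisons named for it.

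Leaving out a library gave 57 to 66 members higher in KO at 0 h, 51 to 60 at 4 h and 27 to 40 at 8 h, 14 to 35 and 69 to 72 in WT at 4 h and 8 h, 11 to 29 and 46 to 55 in KO, and 8 to 18 lower in the interaction at 8 h. Over all genes the ranges were 2162 to 2573, 1630 to 2243 and 1531 to 1931 in KO against WT. They were 1088 to 2158 and 3044 to 3357 in WT, 1133 to 1579 and 2491 to 2888 in KO, and 280 to 537 lower in the interaction at 8 h. With a library left out no member was called the other way, and none in the interaction at 4 h. At 0 h, KO against WT turned to -0.20 (Mrpl50) and -0.17 (Mrps2) with library size alone, to -0.20 (Mrpl10), -0.27 (Mrpl11), -0.32 (Mrpl50) and -0.30 (Mrps2) with cytosolic ribosomal proteins set equal, and to -0.245 (Mrpl10), -0.31 (Mrpl11), -0.36 (Mrpl50) and -0.34 (Mrps2) with cardiomyocyte markers set equal. For WT at 8 h, Mrpl10 and Mrpl11 turned to -0.016 and -0.049 with library size alone. With cytosolic ribosomal proteins set equal the WT change turned to -0.47 (Mrpl10), -0.50 (Mrpl11), -0.17 (Mrps18a), -0.38 (Mrps18b), -0.30 (Mrps18c), -0.58 (Mrpl50) and -0.61 (Mrps2), and with cardiomyocyte markers set equal to -0.22 (Mrpl10), -0.25 (Mrpl11), -0.13 (Mrps18b), -0.039 (Mrps18c), -0.33 (Mrpl50) and -0.35 (Mrps2). With cytosolic ribosomal proteins set equal the KO change at 4 h turned to 0 for Mrpl40 and -0.008 for Mrpl23. The 77 tested members averaged 220.3 to 5481 counts per library, so the depth limits the lowest, such as Mrpl52.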
